A study of Mus musculus with 2 samples.

Results

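The genes described here build and control the contractile actin cytoskeleton: the actins, the myosin that pulls on them, the tropomyosins and calponins along the thin filament, the crosslinkers and focal adhesion proteins that anchor stress fibres, and the SRF pathway and other regulators that act on them. A list of 53 such genes was matched to the array through the platform's gene symbols, current or older. Of these, 48 of the 16637 genes with a named probe were on the array, through 70 of 29922 gene probes. Probes for Actb, Myl6, Actn1, Srf and Rock2 were not found under those names, and these genes are not analysed here.

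RNA came from mouse embryonic fibroblasts labelled as Xbp1 knockout, mesenchymal cells from mouse embryos; XBP1 is the factor through which the sensor IRE1α acts when unfolded protein builds up. The day 0 sample was taken at confluence and the day 3 sample from cells carried through fat cell induction. The induction medium, given for 72 h from confluence, held 5 µM troglitazone, an agonist of the nuclear receptor PPARγ, and 10 µg/ml insulin. It also held 5 µM DXM and 0.25 mM IBMX, an inhibitor of cAMP breakdown. A later insulin dose of 1 µg/ml is listed for both samples. Whether the day 0 cells had met these drugs is not stated in the labels, and both samples carry the knockout label, with no Xbp1-intact cells analysed here. Each day was measured once, on 1 single-colour array, so none of the differences has a replicate check and no test was possible. In such bulk RNA, fewer cells of a type and less RNA per cell cannot be told apart.

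Fibroblasts contract through stress fibres, bundles of actin and non-muscle myosin that end in focal adhesions. Myofibroblasts and smooth muscle cells add their own isoforms of actin, myosin and calponin. Many of these genes carry CArG boxes, the binding site of the transcription factor SRF, whose coactivators of the MRTF family enter the nucleus when monomeric actin is used up by filament assembly. Loss of stress fibres and cell rounding are known steps of fat cell formation in culture.

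Values below are quantile-normalized intensities in arbitrary units, and differences are log2 values of day 3 minus day 0. A gene counts as detected where its brightest probe read above 122 on at least 1 day; that value is the median over the gene probes. Where 1 day lies below 122, or a spot is saturated, only a lower bound of the fold is printed. Levels are not compared between genes as amounts of RNA, because probes differ in brightness for the same amount of RNA. Sums of marker signals and remarks on brighter or dimmer genes describe probe brightness only.

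Of the 48 genes, 42 were detected, 39 on both days, 2 on day 0 only and 1 on day 3 only. On day 3, 9 of the 42 were at least 2-fold lower, 21.4%, against 10.3% of all 10656 detected genes. At least 2-fold higher were 4 of the 42, 9.52%, against 12.8% of all detected genes. The lower genes were Acta2, Actg2, Myl9, Tagln, Tagln2, Tpm1, Tpm3, Vcl and Pfn1, of which Tagln and Tpm3 read below 122 on day 3. The higher genes were Mylk, Myh11, Cnn1 and Des. The median difference of the 42 was -0.33, beside 0.03 for all detected genes. Below 0 were 28 of the 42, beside 5160 of all 10656. When every signal below 122 was raised to 122, 7 were 2-fold lower and 4 were higher, beside 8.51% and 10.2% of all genes.

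Smooth muscle genes were thus not lower as a block. The smooth muscle actins, the regulatory light chain and the transgelins were lower, while the kinase of that light chain, the smooth muscle heavy chain, calponin 1 and desmin were higher. Among widely expressed genes, Myh9, Myh10 and Tln1 differed by less than the scatter of repeated spots, while Tagln2 and Pfn1 were 2-fold lower.

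**Figure D1:**
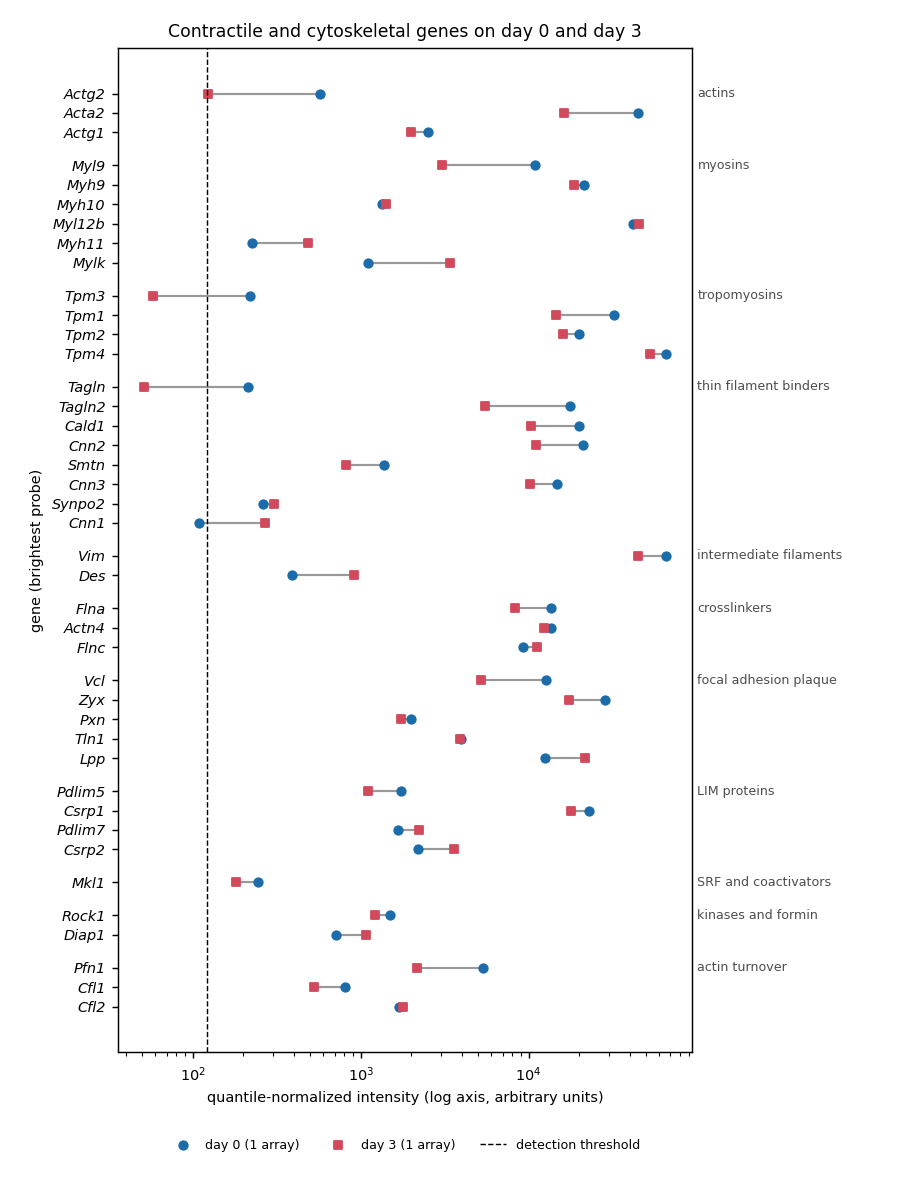
Quantile-normalized intensity (log axis, arbitrary units) of the brightest probe of 41 of the 42 detected genes on day 0 (blue circles) and day 3 (red squares), 1 array each, grouped by role, with the detection threshold of 122 as a dashed line. Acta2, Myl9, Tagln2 and Vcl lie clearly to the left on day 3, while Mylk, Myh11, Des and Cnn1 lie to the right.

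The scatter of repeated spots gives the only error available. Control features printed 4 to 6 times on each array gave a standard deviation (SD) between spots of 1 array. It was multiplied by the square root of 2 to stand for a difference of 2 spots. From the median feature this SD was 0.42 at log2 signals of 6 to 8 and 0.44 at 8 to 10. It was 0.39 at 10 to 12 and 0.37 at 12 to 16. Pooled over features, which weighs noisy ones more, the SD was 0.61, 0.78, 0.57 and 0.89. Each pooled SD is below 1, so the 2-fold rule alone puts genes detected on both days beyond 1 pooled SD. Tagln, Tpm3 and Cnn1, each below 122 on 1 day, also exceeded 1 with that signal raised to 122. With signals raised in this way, 4 of the 13 2-fold genes, Myl9, Pfn1, Mylk and Actg2, exceeded 2. Of the 29 detected genes under 2-fold, 15 differed by less than 1 SD of the median feature. This scatter leaves out variation between cultures, extractions and hybridizations.

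Promoter stretches that hold a CArG box are shown before the single genes, because SRF binding sites are what many of these genes are known to share. The list names SRF pathway genes, so the shares below describe it and test nothing. RefSeq windows of build GRCm38.p6, from 250 bases before to 50 after the annotated start, were searched for the CArG box, 2 C, then 6 bases that are each A or T, then 2 G, a pattern that reads the same on both strands. The windows of a whole chromosome were left out of the search. Among the listed genes without a window are Actg2, Tagln and Myh11, so all motif counts leave these out. Of 44 listed genes with a window, 8 held the box, 18.2%, against 1.81% of 27025 genes. By window the shares were 8 of 55 and 1.63% of 32851. Each stretch runs 5′ to 3′ along the gene, lies wholly before the start, and has the box in capitals.
Myl9, chr2:156775278-156775337, plus strand: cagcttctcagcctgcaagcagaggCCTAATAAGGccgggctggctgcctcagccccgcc
Vcl, chr14:20929148-20929207, plus strand: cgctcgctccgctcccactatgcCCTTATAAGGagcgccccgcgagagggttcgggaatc
Cnn2, chr10:79988519-79988578, plus strand: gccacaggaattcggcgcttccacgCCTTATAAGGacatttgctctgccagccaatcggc
Actg1, chr11:120348551-120348610, minus strand: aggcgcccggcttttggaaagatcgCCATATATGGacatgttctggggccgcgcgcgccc
Actc1, chr2:114052888-114052947, minus strand: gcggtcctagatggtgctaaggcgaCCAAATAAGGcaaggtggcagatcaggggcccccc
Acta1, chr8:123894814-123894873, minus strand: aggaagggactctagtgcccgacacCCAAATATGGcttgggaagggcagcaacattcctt
Srf, chr17:46556210-46556269, minus strand: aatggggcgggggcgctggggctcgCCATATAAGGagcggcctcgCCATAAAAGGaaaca
Myl6 also held a box, in 1 of its windows. Srf, whose product binds the box, held 2 of them side by side.

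Only 4 of these 8 genes were detected on the array, and all 4 were below 0: Myl9 at -1.84, Vcl at -1.29, Cnn2 at -0.92 and Actg1 at -0.33. Vcl and Cnn2 carry the same 10 letters, 227 and 56 bases before the start. Of 31 detected genes of the list with a window but no box, 5 were 2-fold lower, 3 were higher and 20 were below 0. Across the array, 13.4% of 142 detected genes with a box were 2-fold lower and 13.4% higher, with a median of -0.01. Of these 142, 73 were below 0. Of 8501 detected genes with a window but no box, 10.1% were lower and 12.4% higher, with a median of 0.03, and 4096 were below 0. No match in a window says only that these letters are not there.

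The smooth muscle actin gene Acta2 had no full box in its window but 2 boxes with 1 inner C or G, a pattern found in 9.69% of all genes and in 8 of the 44. Of the 6 detected holders in the list, 3 were 2-fold lower and 0 higher, and Flnc and Lpp were above 0 by their brightest probes. Of 29 detected genes of the list without it, 4 were lower and 3 higher. Of all 782 detected genes with this pattern, 11.9% were 2-fold lower and 13.3% higher, beside 9.97% and 12.4% of 7861 without it. The 2 Acta2 boxes are shown because this promoter is known for paired SRF elements and Acta2 was among the genes lower on day 3.
Acta2, chr19:34255423-34255482, minus strand, 84 bases before the start: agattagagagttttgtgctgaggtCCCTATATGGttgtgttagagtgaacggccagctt
Acta2, chr19:34255374-34255433, minus strand, 34 bases before the start: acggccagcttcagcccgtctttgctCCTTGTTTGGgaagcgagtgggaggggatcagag
The MCAT element bound by TEAD factors, searched as CATTCC on both strands, was in the windows of 16 of the 44 genes, 36.4%, against 16.6% of all genes. Of the 13 detected holders, which include Acta2, Tpm1, Tagln2, Vcl and Pfn1, 5 were 2-fold lower and Mylk was higher. Of 22 detected genes without it, 2 were 2-fold lower and 2 higher. Of all 1266 detected genes with the element, 12.1% were 2-fold lower and 12.9% higher, beside 9.81% and 12.4% of 7377 without it.

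Actins form the thin filament. Acta2, the smooth muscle alpha actin that marks myofibroblasts, read 44635.5 on day 0 and 16335 on day 3 by its brightest probe, 2.73-fold lower (-1.45). Another probe read 12886 and 2597.5, a difference of -2.31. A further probe read 3661.25 and 705, a difference of -2.38. All 3 detected probes were thus lower on day 3, the brightest least so, and the remaining probe lay below the threshold with 73.5 and 28.

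Actg2, the smooth muscle gamma actin of gut and bladder wall, read 576 and 124, 4.65-fold lower (-2.22). Its day 3 signal stood just above the threshold of 122. Actg1, the cytoplasmic gamma actin present in nearly all cells, read 2522.5 and 2007.5 (-0.33), within 1 SD of repeated spots. Acta1 and Actc1, the skeletal and cardiac muscle actins, stayed below the threshold, with 4.5 on both days for Acta1 and 54 and 77.75 for the brighter probe of Actc1. The actin genes are close in coding sequence, and where the probes lie in them was not analysed here.

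Myosin II supplies the force, and its heavy chains showed a split by type. Myh11, the heavy chain particular to smooth muscle, was higher on day 3, from 225.5 to 485.25, a 2.15-fold difference (1.11). Myh9, the main non-muscle heavy chain of fibroblasts, read 21449 and 18531 (-0.21). Myh10, the other non-muscle form, gave 0.07 by the brighter probe and -0.37 by the other. Neither non-muscle chain differed by more than 1 SD of repeated spots.

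The light chains were split as well. Myl9, the regulatory light chain typical of smooth muscle and stress fibres, read 10940.5 and 3066.5, 3.57-fold lower (-1.84). Only 2.53% of detected genes had a lower difference than Myl9. Myl12b, the closely related non-muscle regulatory light chain, read 42038.5 and 45262.5 (0.11), with no difference beyond the spot scatter.

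Mylk encodes the kinase that phosphorylates these light chains and so switches the motor on. It read 1102.5 on day 0 and 3419.75 on day 3, a 3.10-fold higher signal (1.63). Its other probes read 826 and 2395.75, and 594.5 and 1815, with differences of 1.54 and 1.61. With an SD of 0.05 over its 3 probes, it was among the best repeated values of the list. The kinase and the substrate Myl9 thus differed in opposite directions.

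Tropomyosins lie along the actin filament and govern which myosins and binders reach it. All 4 genes were below 0. Tpm1 read 32107 and 14639, 2.19-fold lower (-1.13). Tpm3 read 218 and 58, at least 1.79-fold lower, since the day 3 signal lay below the threshold. Tpm2, with 20057.5 and 16036 (-0.32), stayed within 1 SD of repeated spots.

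Tpm4, which encodes a short non-muscle tropomyosin, depended on the probe. The brightest probe was saturated on day 0 and read 65475.5 and 52753, at least 1.24-fold lower. Its unsaturated probes read 41014.5 and 10482.5 (-1.97), and 9131 and 1720 (-2.41). By the brightest unsaturated probe Tpm4 would be a 10th gene of the list at 2-fold lower. All 3 probes had the same sign.

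Transgelins and calponins bind the side of the filament. Tagln, an early smooth muscle and myofibroblast marker, read 212.5 and 51.5, which gives at least 1.74-fold lower because day 3 lay below the threshold. Tagln2, its widely expressed relative, read 17579.5 and 5480.5, 3.21-fold lower (-1.68). Both were lower on day 3, but for Tagln the probe was dim on both days.

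The calponins went apart. Cnn1, the smooth muscle calponin, read 109.5 on day 0, below the threshold, and 268 on day 3, at least 2.20-fold higher. Cnn2, the form found in many non-muscle cells, read 21164.8 and 11149.5, 1.90-fold lower (-0.92). Cnn3, the acidic calponin, read 14857 and 10237.5 (-0.54). The smooth muscle form was therefore the one that was higher, with its day 3 signal at only 2.20 times the threshold.

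Cald1, the caldesmon that holds myosin off the filament, read 20091 and 10407.5 (-0.95) by its brightest probe. The other probes gave -1.28 and -2.10, so both of these were past 2-fold and the brightest was just short of it. Smtn, a marker of contractile smooth muscle, read 1375.5 and 823 (-0.74). Synpo2, a stress fibre and Z-disc protein, read 261.5 and 306.5 (0.23). Lmod1, which nucleates filaments in smooth muscle, stayed below the threshold with 62.5 and 73.5.

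The intermediate filament genes differed in opposite senses. Des, the muscle intermediate filament desmin, read 389 and 912, 2.34-fold higher (1.23). Vim, the vimentin of mesenchymal cells, was saturated on day 0 and read 65473.5 and 44635.5, at least 1.47-fold lower.

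**Figure D2:**
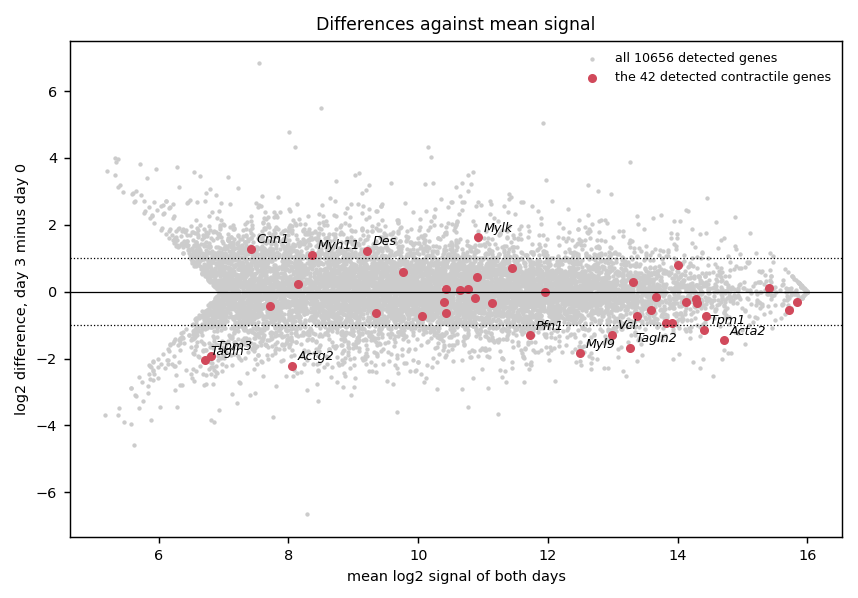
Log2 difference, day 3 minus day 0, against the mean log2 signal of both days for all 10656 detected genes (grey) and the 42 contractile genes (red), 1 point a gene; dotted lines mark 2-fold, and the genes past it are named. The lower genes Tpm1, Acta2, Tagln2, Vcl, Myl9 and Pfn1 are among the brighter points, while the higher genes Cnn1, Myh11 and Des are dimmer.

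Crosslinkers bundle actin or tie it into networks. None of the 3 detected was past 2-fold. Flna, the main filamin of fibroblasts, read 13535 and 8257 (-0.71). Flnc, the muscle filamin, read 9240 and 11251.5 (0.28, and 0.32 by its other probe). Actn4, a non-muscle alpha actinin, read 13694 and 12316 (-0.15, and -0.20 by its other probe). Only Flna differed by more than 1 SD of the median repeated feature.

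Focal adhesion proteins couple stress fibres to integrins. Vcl, the vinculin recruited under tension, read 12689.5 and 5197.5, 2.44-fold lower (-1.29). Zyx, which repairs strained stress fibres, read 28491 and 17311.5 (-0.72). Tln1, the talin that activates integrins, read 3987 and 3921.5 (-0.02) and differed by less than the spot scatter. Pxn, the scaffold paxillin, gave -0.20 by the brighter probe and -0.98 by the other. Lpp, a zyxin relative, gave 0.79 by the brighter probe, with 12528.5 and 21674, and -0.26 by the other, so its direction was not settled.

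LIM proteins of the stress fibre and Z-disc showed no 2-fold case by the brightest probe. Pdlim5, an adaptor for protein kinases on actin, read 1730.5 and 1104.5 (-0.65), while its other probe read 2036 and 342 (-2.57). Csrp1, which binds alpha actinin, read 22796.5 and 17962 (-0.34). Csrp2, the smooth muscle LIM protein, was 1.64-fold higher with 2189 and 3579.5 (0.71). Pdlim7 gave 0.43 and -0.17 by its probes, which disagree in sign.

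Of the SRF pathway little was measured. Mkl1, the coactivator now named Mrtfa, read 244.5 and 181.5 (-0.43). Mkl2, now Mrtfb, stayed below the threshold with 90.5 and 101.5. Myocd, the myocardin of heart and smooth muscle, read 24 and 85, also below it. Of the 3 SRF coactivators on the array, 1 was thus detected.

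Kinases and formins act on both motor and filament. Rock1, a kinase that raises light chain phosphorylation, read 1499 and 1209.5 (-0.31). Diap1, now Diaph1, a formin that elongates filaments, gave 0.59 by its brightest probe, with 709.5 and 1070.5, and -0.15 by the other. Neither was past 2-fold, and the direction of Diap1 depended on the probe.

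Actin turnover depends on cofilins, which sever filaments, and profilin, which feeds monomers to growing ends. Pfn1, the main profilin, read 5352.5 and 2159.5, 2.48-fold lower (-1.31). Cfl1, the non-muscle cofilin, read 807 and 524 (-0.62). Cfl2, the muscle cofilin, read 1699.5 and 1782.75 (0.07). Only Pfn1 was past 2-fold.

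Several probes were available for 17 of the 48 genes, and at least 2 of them were detected for 12. All detected probes had the same sign in 8 of the 12, namely Acta2, Mylk, Tpm4, Cald1, Actn4, Flnc, Pxn and Pdlim5. Both signs occurred for Myh10, Lpp, Pdlim7 and Diap1, 33.3% of the 12, beside 35.9% of all genes with at least 2 detected probes. The median SD of the differences over probes of 1 gene was 0.52. In 11 of the 12 the brightest probe had the highest difference, and in Flnc it had the lowest. Among all 1968 genes with at least 2 detected probes the brightest had the highest difference in 61.9% and the lowest in 33.1%.

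**Figure D3:**
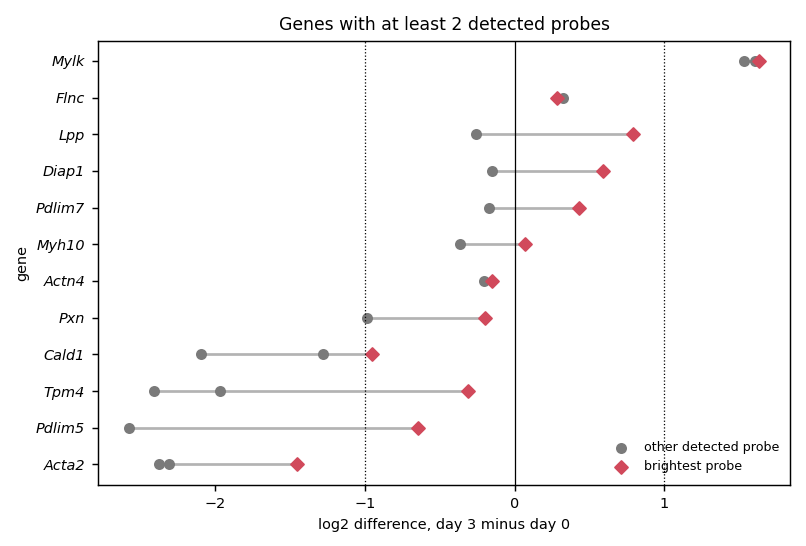
Log2 difference, day 3 minus day 0, of each detected probe for the 12 genes with at least 2 detected probes; red diamonds are the brightest probe, grey circles the others, grey bars their range, and dotted lines mark 2-fold. Mylk's 3 probes lie together above 1, Acta2's 3 lie below -1, and Tpm4 and Pdlim5 span the widest ranges.

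The split into lower and higher genes held under the other ways of putting the arrays on a common scale, once the shift of all genes was removed. Both median scalings and no normalization multiply each array by a constant. Relative to the median of all genes they therefore differ, above the floor, only by a shift common to all genes, and are not separate checks. Median scaling over all gene probes moved the median of all detected genes to -0.49, and no normalization moved it to 0.67. Over 6 settings (the reported one, the authors' series table, and 4 scalings relative to their median of all genes), Acta2 ranged from -1.72 to -1.35, Actg2 from -2.26 to -1.70, Myl9 from -2.08 to -1.81, Tagln2 from -1.94 to -1.63 and Vcl from -1.54 to -1.24. Mylk ranged from 1.46 to 1.64 and Des from 1.23 to 1.31. Myh11, which has no value in the authors' series table, ranged from 1.11 to 1.33 over the other settings. None of the 13 2-fold genes changed sign in any setting tried. Genes near 0, among them Myl12b, Myh10 and Cfl2, lay on both sides of it.

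**Figure D4:**
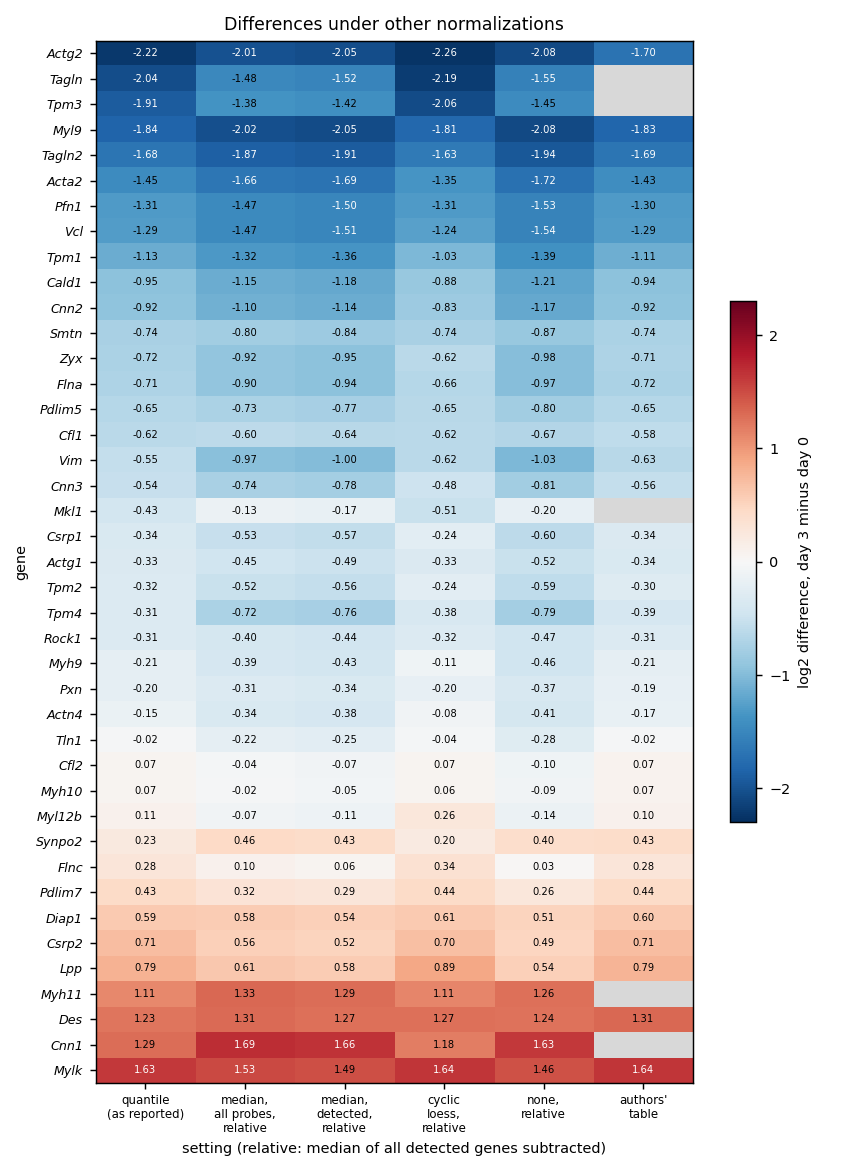
Log2 differences, day 3 minus day 0, of 41 of the 42 detected genes (rows, ordered by the reported value) in 6 settings (columns), where relative means that the median of all detected genes was subtracted; grey cells have no value, and Tpm3, Tagln and Cnn1 are drawn at their computed values although 1 day lay below the threshold. The 9 lowest and 4 highest genes keep their sign in every column where they have a value, while Myl12b, Myh10 and Cfl2, all near 0, do not.

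Genes close to the list were counted to place it, beside the 10.3% lower and 12.8% higher of all detected genes. Among 27 detected genes of actin assembly and turnover outside the list, 2 were 2-fold lower (7.41%) and 3 higher (11.1%), with a median of 0.04. Arpc1b, a subunit of the branching Arp complex, read 48492 and 21859 (-1.15), and Cttn, the cortactin that stabilizes branches, read 3329 and 1002.5 (-1.73, and -0.41 and -2.14 by its other probes). Pfn2, the second profilin gene, went the other way from Pfn1 with 10337 and 24959.5 (1.27). Lcp1, an actin bundling protein of blood cells, read 184 and 628.5 (1.77).

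Adhesion plaque and stress fibre genes outside the list had a median of -0.32, close to that of the list, with 5 of 36 lower (13.9%) and 3 higher (8.33%). Rdx, a radixin that links actin to the membrane, read 2596.25 and 542, 4.79-fold lower. Pdlim1, a PDZ-LIM protein bound to alpha actinin, read 7138.5 and 2730, 2.61-fold lower. Nedd9, a scaffold of focal adhesion kinase, was higher with 343 and 947.5 (1.47). Ajuba, a LIM protein, read 125.5 and 21.5 and was at least 1.03-fold lower.

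Other myosin and muscle filament genes had a median of 0.26, with 0 of 20 lower and 3 higher, 15% beside 12.8% of all detected genes. With signals below 122 raised to 122, 2 of the 20 were still 2-fold higher, beside 10.2% of all detected genes. Tnnc1, the troponin C of heart and slow muscle, read 609 and 1970, 3.23-fold higher. Mylk2, the skeletal muscle counterpart of Mylk, read 141 and 417 (1.56, and 1.01 by its other probe), and Ttn was at least 1.72-fold higher. Myo1c, an unconventional myosin that takes part in glucose transporter delivery, read 1028 and 515.25, just short of 2-fold lower.

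Other SRF targets and partners numbered 25 detected genes, 5 of them 2-fold lower (20%) and 1 higher (4%), with a median of -0.19. Ankrd1, a stretch-responsive nuclear factor, read 2837.5 and 235, 12.1-fold lower. Egr2, an immediate early gene, read 590 and 122.5, 4.82-fold lower. Mef2a, a muscle transcription factor, gave -1.92 and -1.02 by its probes. Fosb, the single higher gene, was at least 1.71-fold higher with 58 and 209, and so was not 2-fold at its bound.

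**Figure D5:**
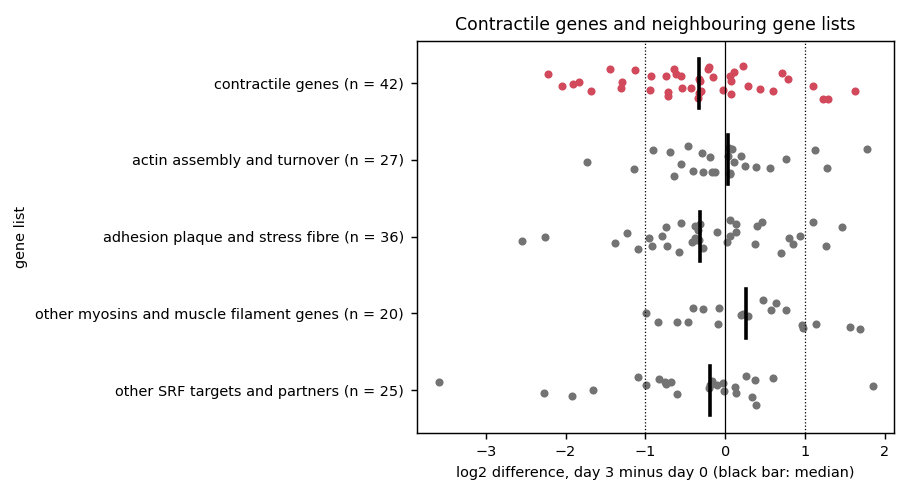
Log2 difference, day 3 minus day 0, of each detected gene in the contractile list (red, n = 42) and in 4 neighbouring gene lists (grey), with the median as a black bar and 2-fold as dotted lines; vertical scatter only separates points. The medians are -0.33, 0.04, -0.32, 0.26 and -0.19 from top to bottom.

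The label of the cells was checked against marker genes. All 10 fibroblast markers were detected, with summed signals of 210315 on day 0 and 207662 on day 3. Dcn, saturated on both days, made up 65479.5 and 65478 of these sums. Of the others, S100a4 (-1.56) and Col1a1 (-1.06) were 2-fold lower, and Fn1 (2.06) and Lum (1.60) were higher. Of 10 smooth muscle markers outside the list, 6 were detected, with sums of 1928 and 7967.5. The sum was set by Rgs5, which read 590 and 5490, and Notch3, which read 207.5 and 1056, both also pericyte genes. Of the 6, 3 were 2-fold higher, Rgs5, Notch3 and Casq2, and 1 was lower, Nrip2, beside 12.8% higher and 10.3% lower of all detected genes. Casq2 read 52.5 and 140, and Nrip2 read 129.5 and 64.5. Each lay below 122 on 1 day, and neither was 2-fold at its bound. Pln and Kcnmb1 were at the floor of 10 on both days. Any link between these markers and the higher signals of Mylk, Myh11, Cnn1 and Des was not tested. Skeletal muscle markers were detected in 3 of 10 cases (sums 717.5 and 1028, Myf5 and Acta1 at the floor) and cardiac ones in 2 of 9 (583.5 and 518.5, Nkx2-5 at the floor). Of the adipocyte markers 1 of 10 was detected, Lpl, which read 8480 and, saturated, 59293 of list sums of 8616.5 and 59634.5. Adipoq, with 12 and 120.5, stayed just below the threshold of 122, and the other undetected ones differed in both directions. Macrophage markers were detected in 4 of 7 cases (1373.5 and 3979.5, Ptprc at the floor), endothelial ones in 3 of 6 (606 and 798) and epithelial ones in 2 of 6 (926.5 and 702.5, Epcam at the floor). Genes within these lists differed in both directions. Itgam read 703.5 and 3556 while Csf1r read 269.5 and 51.5. Pecam1 read 189.5 and 568.5 while Kdr read 168 and 17.5.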

How the data were processed

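Each deposited per-sample table listed the linear intensity of 39200 spots. Background seemed to be subtracted already, as 7402 empty spots centred on a median of 0 on both days. The image software is not named in the labels. Raw gene probe intensities had a median of 78 on day 0 and 166 on day 3. The authors' series table, with normalized intensity values for 11482 gene probes (51 of the 70 for the contractile genes), was an alternative.

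Quantile normalization of the 29922 gene probes used limma 3.58.1 in R 4.3.3, followed by a floor of 10 and log2. Saturation was set at 65000. Each gene was represented by its brightest probe, by mean log2 signal. Platform symbols were updated through RefSeq GRCm38.p6: 17563 probe symbols were current, 3385 matched a synonym, 72 were kept, and 8902 probes had none. Normalization and calling were also run on simulated arrays made from the day 0 intensities, with a uniform shift between them. Known changes were put only into probes of middle signal, with the smaller scatter of the median feature. This run therefore does not measure the error of dim or saturated genes in the real arrays. Of the 53 listed genes, the 42 detected entered the counts. Single values of some members and 1 neighbouring list are not reported here. Of each neighbouring list up to 4 are named, those with the largest difference whose direction held under median scaling and cyclic loess. The members, lists and rules were chosen with earlier results of these data known. The alternatives were other normalizations, floors, offsets, filters and probe rules.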

Additional observations from a re-analysis of the deposited data

How the results depend on the processing

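Single arrays limit the precision, and dim signals leave 6 of the 48 genes without a comparison. No paired analysis was possible because each day had 1 array. Of 18 alternatives, 5 were chosen after seeing the data: the brightest unsaturated probe and 4 scalings relative to the median of all genes. The count of 9 genes lower and 4 higher became 21 and 2, with a median of -0.97, when arrays were scaled to the median of all gene probes, beside 24.2% lower and 7.81% higher of all detected genes. It became 4 and 9 with no normalization, with a median of 0.15, beside 2.85% and 35.7% of all genes. Relative to the median of all genes these settings gave 11 and 4 (10.1% and 15.1% of all genes), and 12 and 4 (10.5% and 16.5%), with medians of -0.49 and -0.52. With a 1.5-fold threshold 16 were lower and 7 higher, beside 21% and 24.1% of all genes. The higher count was 2 in the authors' series table, where Myh11 and Cnn1 have no value (9.93% of all genes were higher), and 2 with an offset of 50, which shrinks differences of dim genes (9.74%). In the other settings the lower count lay between 7 and 12 and the higher count between 3 and 5. The shares of all genes in these settings lay between 8.43% and 13.1% lower and between 10.1% and 17.6% higher. Of 704 values of single genes under alternatives, 594 moved by less than 1 SD of repeated spots and 110 moved by more. The 594 include values that could not move, since the filters and the other floor leave the value of a detected gene unchanged. Of the 2-fold genes, 0 changed sign.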
